A study of Homo sapiens with 5 samples.

Results

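The genes described here mark the lung epithelial lineage or serve pulmonary surfactant: the transcription factor NKX2-1, the surfactant proteins SFTPB, SFTPC and SFTPD, the protease NAPSA, the lamellar body proteins LAMP3 and ABCA3, the water channel AQP5, the club cell protein SCGB1A1 and the acyltransferase LPCAT1. They were chosen by name, and each was read from its brightest array feature annotated with that symbol alone. Of the 10 genes, 8 had such a feature, among 14232 genes measured in all. NKX2-1 shared its only feature with SFTA3, and NAPSA shared its only feature with NAPSB, so neither received a value. ABCA3 also lay on a feature shared with ABCA17P and CCNF, which was not used.

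Expression was measured on 5 Affymetrix exon arrays, each loaded with total RNA from human lung cancer cells. A549 is a long-established line from a lung adenocarcinoma; per the submitters its LKB1 kinase is inactivated by mutation and it has raised NEDD9, a scaffold protein of focal adhesions. For A549 there is 1 control array, and 1 array each after knockdown of NEDD9 with either of 2 short hairpins. CRL-5907, which the submitters describe as wild type for LKB1 and low in NEDD9, was profiled as a control (1 array) and with NEDD9 overexpression (1 array). The labels give no construct for the control cells, no clone or pool for the engineered cells, and do not say whether arrays came from separate cultures, so the spread between arrays may be technical. For hairpin 2 the title says NEDD9 but the description says NEDD10, and the title was followed.

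Pulmonary surfactant is a film of phospholipids, mostly phosphatidylcholine, and of a few proteins that lowers surface tension in the alveoli. Alveolar type II cells make it, store it in lamellar bodies and secrete it. NKX2-1 acts with forkhead factors and C/EBP factors on the promoters of surfactant and club cell genes, and NKX2-1 and napsin A are stained in pathology to recognise lung adenocarcinoma. A549 is often used as a stand-in for alveolar type II cells.

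All values are log2 expression levels, 1 value per array. The median of an array over features with 1 gene symbol lay between 5.69 and 5.85, and a value below that median was not shown to exceed background. A gene passed the level filter when its brightest array in a comparison lay above that array's median. LPCAT1 and ABCA3 passed, above the median on 5 of 5 arrays each. The other 6 genes (AQP5, SFTPC, SCGB1A1, SFTPB, SFTPD and LAMP3) lay below it on every array and entered no count. Where a gene passed in 1 line and lay below the medians on every array of the other, the difference between the lines is known only as a bound, and its levels are given in its place. In RNA of a cell culture, fewer cells with a transcript and less transcript per cell cannot be told apart.

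NEDD9 followed its labels. Its log2 level was 8.94 on the A549 control, 8.35 with hairpin 1, 8.52 with hairpin 2, 4.66 on the CRL-5907 control and 9.49 with overexpression. With the hairpins its linear level fell by 33.4% and 24.8%, a partial knockdown. All 6 epithelial markers examined passed the level filter. Among them were the keratins KRT7 (control levels of 10.93 in A549 and 9.94 in CRL-5907) and KRT8 (11.69 and 11.04). EPCAM alone of the 6 was higher on the CRL-5907 control. Its log2 difference (A549 control minus CRL-5907 control) of -1.44 was the largest of the 6 in size. Of markers of other cells, 0 of 5 endothelial, 1 of 6 fibroblast and 2 of 7 leukocyte markers passed, where 7987 of 14232 genes did. The leukocyte markers that passed were CD68, a lysosomal glycoprotein, and CD14.

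The sequences shown first are the reference stretches upstream of the start sites of the genes whose levels differed between the lines. Stretches of a surfactant gene follow. They come from RefSeq promoter windows on GRCh38.p14, which held 7 of the 10 genes and 5 of the 8 measured ones. They are reference sequence and were not read from these cells. Capitals mark the GC box GGGCGG, bound by SP factors, and the CREB half-site TGACG, each on either strand. The motifs searched here and for SFTPB were chosen after the genes' values and these windows had been seen, so their matches describe the windows and test nothing. The GC box and the half-site share no letters in the windows shown.
LPCAT1 (chr5:1523961-1524210, minus strand, 250 bases up to the start site): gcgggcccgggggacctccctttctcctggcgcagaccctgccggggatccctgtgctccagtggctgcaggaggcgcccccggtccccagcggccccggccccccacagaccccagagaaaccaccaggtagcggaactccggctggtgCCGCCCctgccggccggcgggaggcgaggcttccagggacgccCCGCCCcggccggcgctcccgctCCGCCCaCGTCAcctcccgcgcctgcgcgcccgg
ABCA3 (chr16:2340729-2340978, minus strand, 250 bases up to the start site): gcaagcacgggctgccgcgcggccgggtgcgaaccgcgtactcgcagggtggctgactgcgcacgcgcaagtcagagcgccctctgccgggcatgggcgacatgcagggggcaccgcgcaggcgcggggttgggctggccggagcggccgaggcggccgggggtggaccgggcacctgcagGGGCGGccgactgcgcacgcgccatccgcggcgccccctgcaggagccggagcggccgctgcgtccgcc
Both windows are rich in G and C (78.8% for LPCAT1 and 79.2% for ABCA3, against a median of 58.0% over 35116 promoter windows). LPCAT1 holds 3 GC boxes and ABCA3 holds 1, a motif found in 42.6% of all windows. LPCAT1 also holds 1 CREB half-site, found in 21.2% of windows, and ABCA3 holds 0. Neither holds TCAAG, letters that occur in NKX2-1 sites (29.2% of windows), or the forkhead core ACAAACA (4.56% of windows), on either strand.

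SFTPB, a textbook target of NKX2-1 and forkhead factors, holds both of those motifs in 1 of its 2 windows. That window also holds 1 GC box, as many as the window of ABCA3. The following 30-base stretches show the forkhead core and TCAAG in capitals, on the minus strand of chromosome 2.
SFTPB forkhead core (chr2:85668264-85668293): tcagagcaaagACAAACActgaggtcgctg
SFTPB TCAAG (chr2:85668296-85668325): gaaaaggtgggaTCAAGcacctggagggct
SFTPD holds 2 TCAAG matches and 0 forkhead cores in its window, and AQP5 holds 0 of either and 4 GC boxes. A match describes letters only and shows neither a site nor its use.

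LPCAT1 and ABCA3, both of them working on the lipid of surfactant, were the genes whose levels differed between the lines, in opposite directions. LPCAT1 attaches an acyl chain to lysophosphatidylcholine and so makes the saturated phosphatidylcholine of surfactant. Its log2 level was 7.95 on the A549 control, 7.78 with hairpin 1, 8.05 with hairpin 2, 9.42 on the CRL-5907 control and 10.03 with overexpression. Both CRL-5907 arrays lay above all 3 A549 arrays, with a gap of 1.37 between the nearest of them. On the controls LPCAT1 was 2.78-fold higher in CRL-5907 (log2 difference, A549 minus CRL-5907, -1.47).

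ABCA3 pumps phospholipid into lamellar bodies. Its log2 level was 7.24 on the A549 control, 7.06 with hairpin 1, 7.12 with hairpin 2, 6.05 on the CRL-5907 control and 5.95 with overexpression. All 3 A549 arrays lay above both CRL-5907 arrays, with a gap of 1.01. On the controls ABCA3 was 2.28-fold higher in A549 (log2 difference 1.19).

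**Figure D1:**
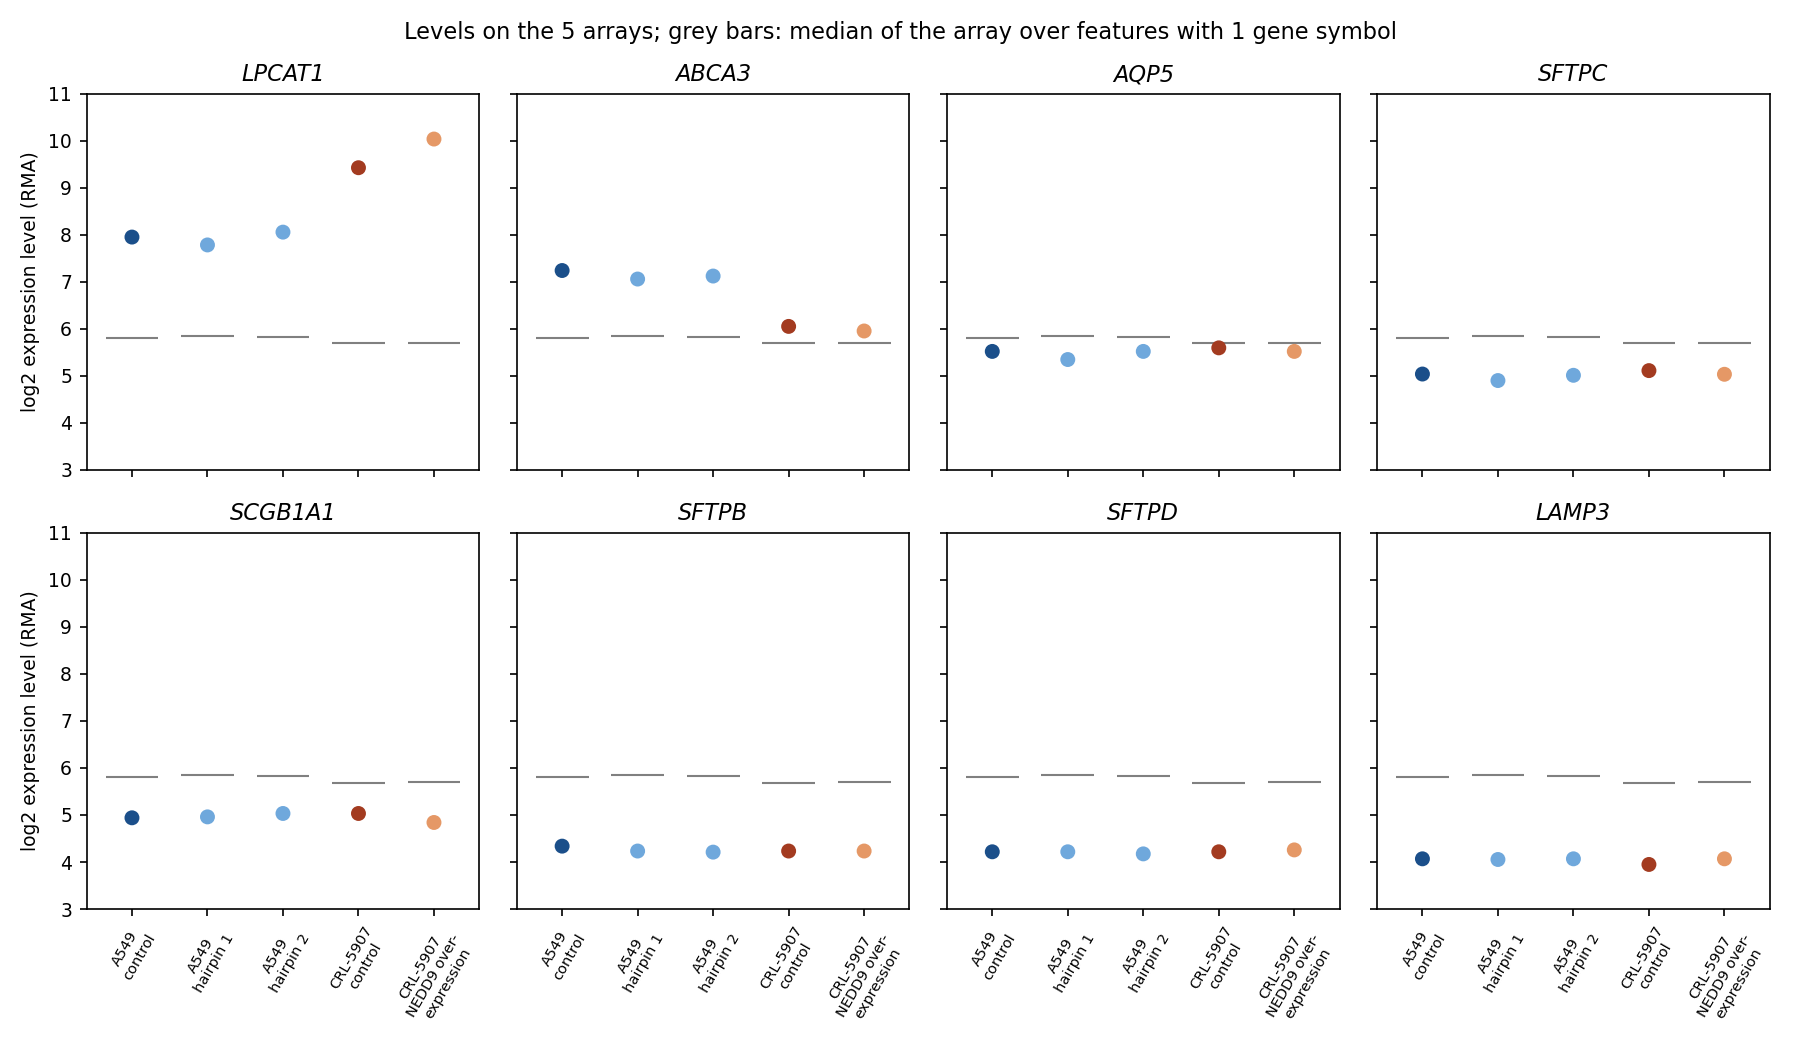
Log2 expression level (vertical axis) of 8 lung lineage and surfactant genes on each of the 5 arrays (horizontal axis, blue for A549 and red or orange for CRL-5907), 1 point per array, with grey bars at each array's median over features with 1 gene symbol. LPCAT1 and ABCA3 lie above the bars on 5 of 5 arrays and separate the lines in opposite directions, and the other 6 genes lie below the bars on every array.

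Both genes that passed the filter were thus at least 2-fold apart between the controls, where 14.9% of 7716 genes were. Larger absolute control differences than that of LPCAT1 were shown by 587 genes, and larger ones than that of ABCA3 by 884 genes. With 1 control array per line, this difference has no test. The cell lines were therefore also compared over all arrays of each line (3 of A549 and 2 of CRL-5907) with limma. The spread within a line then includes the NEDD9 manipulation, and the arrays are not replicates of untreated cells.

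In that fit LPCAT1 had a mean of 7.93 ± 0.14 (SD, n = 3) in A549 and 9.73 ± 0.43 (SD, n = 2) in CRL-5907. The log2 difference was -1.80 ± 0.20 (SE), with an adjusted p of 0.0013 from limma with Benjamini-Hochberg adjustment over 7987 genes. ABCA3 had means of 7.14 ± 0.09 (SD, n = 3) and 6.001 ± 0.07 (SD, n = 2), a log2 difference of 1.14 ± 0.08 (SE) and an adjusted p of 0.00038 from the same limma fit. Both differences exceeded the spread within lines. The lines differ widely, however: limma called 49.5% of the genes, and 68.0% had lines whose arrays did not overlap. That both genes were called is therefore a description of these genes and not a property that sets them apart.

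With NEDD9 knockdown, 0 of the 2 genes was 1.5-fold from control with both hairpins, where 0.842% of 7485 genes were. LPCAT1 was at -0.17 with hairpin 1 and 0.10 with hairpin 2, on opposite sides of the control, and its direction depends on which hairpin is read (mean -0.03 ± 0.19, SD, n = 2). The difference between the hairpins was as large as -0.27, against an SD of 0.14 for that difference among genes of a similar level. ABCA3 was lower with both hairpins, at -0.18 and -0.12 (mean -0.15 ± 0.04, SD, n = 2). The median over all genes past the filter was 0.10 for hairpin 1 and 0.04 for hairpin 2, and both hairpins share 1 control array.

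limma gave an adjusted p of 0.948 for LPCAT1 (log2 difference -0.03 ± 0.18, SE) and of 0.342 for ABCA3 (-0.15 ± 0.05, SE), with Benjamini-Hochberg adjustment and 1 residual degree of freedom. Over all 7485 genes limma made 0 calls at the adjusted threshold of 0.05. At an unadjusted 0.05 limma gave 1312 genes, LPCAT1 and ABCA3 not among them. A single control array and a partial knockdown limit what this comparison can show, and the p-values do not show that the genes were unchanged.

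With NEDD9 overexpression LPCAT1 was 1.53-fold higher than on the CRL-5907 control (log2 difference 0.61), and ABCA3 was at -0.10. Of the 2 genes 1 thus passed 1.5-fold, where 4.35% of 7410 genes did in either direction and 3.50% upwards, and 234 genes had larger positive differences than LPCAT1. There is 1 array in each condition and no test. LPCAT1 lay just past the threshold of 0.585, and below it when arrays were centred on their medians (0.576) or quantile-normalized once more (0.536). The overexpression array stood 4.24-fold above the A549 control for LPCAT1, while for ABCA3 it stood at 0.41 of the A549 control. NEDD9 itself stood 1.47-fold above the A549 control on that array. Whether the level of NEDD9 bears on the differences between the lines was not tested.

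**Figure D2:**
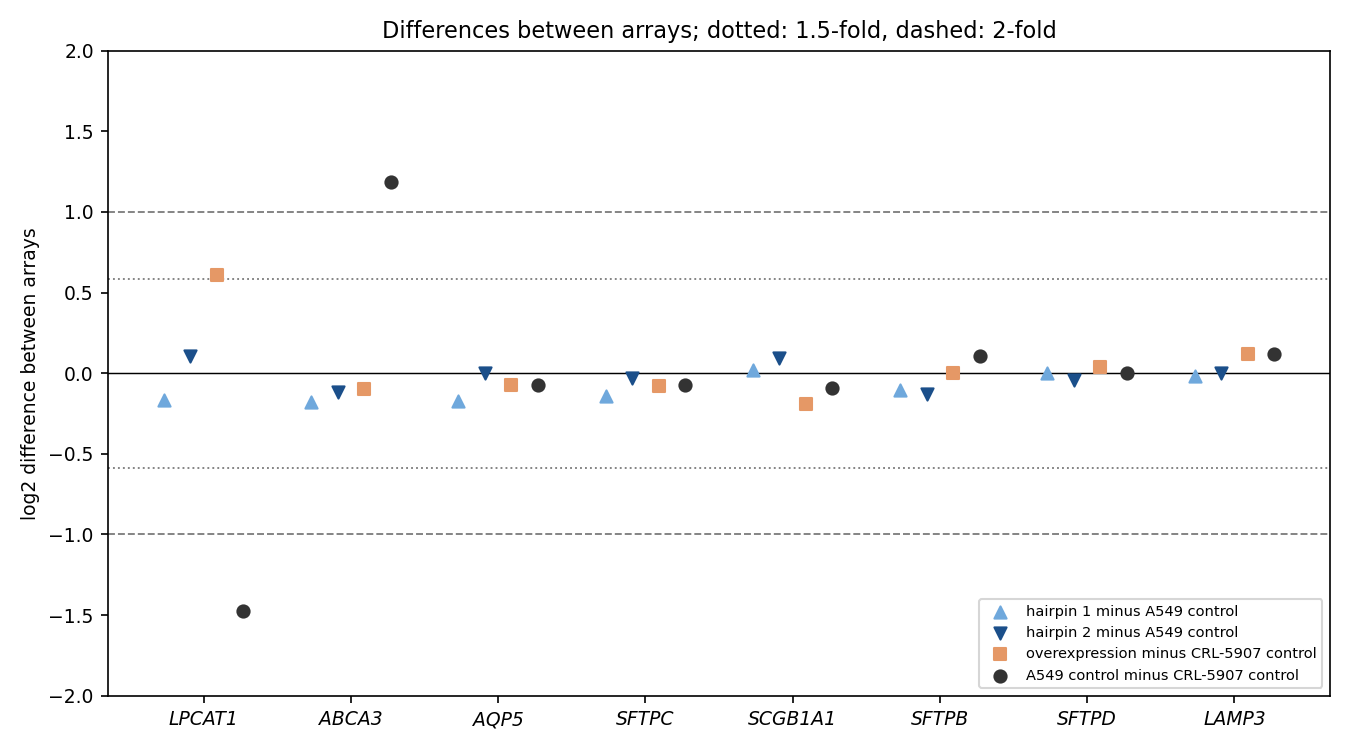
Log2 differences (vertical axis) of 8 genes for hairpin 1 and hairpin 2 against the A549 control, overexpression against the CRL-5907 control, and the A549 control against the CRL-5907 control, 1 symbol per pair of arrays, with dotted lines at 1.5-fold and dashed lines at 2-fold. The control differences of LPCAT1 (-1.47) and ABCA3 (1.19) lie past 2-fold, LPCAT1 with overexpression (0.61) lies just past 1.5-fold, and all other differences lie within 1.5-fold.

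The surfactant proteins themselves stayed below the array median in both lines. SFTPB encodes a small hydrophobic protein that spreads the lipid film. Its log2 level was 4.34 on the A549 control, 4.23 with hairpin 1, 4.21 with hairpin 2, 4.23 on the CRL-5907 control and 4.23 with overexpression. SFTPC encodes the other hydrophobic surfactant protein, made by type II cells alone. Its level was 5.04, 4.90 and 5.01 on the A549 arrays in the same order, and 5.11 and 5.03 on the CRL-5907 arrays. SFTPD encodes a collectin that binds microbial sugars, and its level was 4.22, 4.22, 4.17, 4.22 and 4.26. For each of these genes the arrays of the lines overlapped or met at an equal value.

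The same held for the remaining markers. LAMP3, a lysosomal membrane protein found on lamellar bodies and in mature dendritic cells, was at 4.07, 4.05 and 4.07 on the A549 arrays and at 3.95 and 4.07 on the CRL-5907 control and overexpression arrays. AQP5, the apical water channel of alveolar type I cells and airway glands, was at 5.52, 5.35, 5.52, 5.59 and 5.52, the closest of the 6 to the array medians. On the CRL-5907 control it lay just under the median of 5.69. SCGB1A1, the secretoglobin that defines club cells, was at 4.94, 4.96, 5.03, 5.03 and 4.84.

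Over the 5 arrays these 6 genes spanned between 0.08 (SFTPD) and 0.25 (AQP5) on the log2 scale. The 6245 genes below the filter had a median span of 0.31, with quartiles of 0.15 and 0.57. The largest of the 24 differences from a control or between controls was 0.19 in size, or 1.14-fold (SCGB1A1 with overexpression, -0.19). SFTPB, SFTPD, LAMP3 and AQP5 each had exactly equal values on 3 of the 5 arrays, which the RMA summary can produce for dim features. At least 1 pair of arrays with equal values was found in 53.1% of genes below the filter and in 22.6% of genes above it. The share with equal values on 3 arrays was not computed. A difference of 0 between such arrays does not show an unchanged transcript, and at these levels neither presence nor absence of the transcripts can be read.

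LPCAT1 belongs to a family of lysophospholipid acyltransferases, and the other 3 members passed the filter. LPCAT3, which places polyunsaturated chains into membrane phosphatidylcholine, also was higher in CRL-5907. Its log2 level was 9.18, 9.35 and 9.34 on the A549 control, hairpin 1 and hairpin 2 arrays and 10.81 and 10.82 on the CRL-5907 control and overexpression arrays (difference of line means -1.53 ± 0.08, SE, limma adjusted p = 0.00015). LPCAT4 went the other way, at 8.90, 8.93 and 8.62 in A549 and 7.58 and 7.42 in CRL-5907 (1.32 ± 0.13, SE, limma adjusted p = 0.00081). LPCAT2, an inflammation-induced member, was at 5.97, 5.79 and 5.44 in A549 and 6.32 and 6.45 in CRL-5907 (-0.65 ± 0.17, SE, limma adjusted p = 0.024), above the median on 3 of 5 arrays. Thus 3 of 4 family members were higher in CRL-5907 and 1 in A549, and LPCAT1 alone among them passed 1.5-fold with overexpression (0.13 for LPCAT2, 0.01 for LPCAT3 and -0.16 for LPCAT4). Whether the response of LPCAT1 differed from theirs was not tested.

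The wider list of phosphatidylcholine synthesis and remodelling genes, without LPCAT1, had 15 of 17 genes measured and 14 above the filter. limma called 6 higher in A549 and 4 higher in CRL-5907, where 31.8% and 17.7% of all genes were called. PLIN2, a lipid droplet coat protein, was furthest towards A549 (1.84 ± 0.17, SE, limma adjusted p = 0.00074), followed by LPCAT4 among genes above the medians in both lines. GPAM, the first acyltransferase of glycerolipid synthesis, is among the 6, but lay above the median on 1 of 5 arrays only, at 5.77, 5.93 and 5.81 in A549 and 4.64 and 4.56 in CRL-5907. CHPT1, the cholinephosphotransferase that completes phosphatidylcholine (0.64 ± 0.12, SE), and PEMT, which makes it by methylation (0.57 ± 0.08, SE), were also called higher in A549. PCYT1A, the rate-limiting enzyme of the choline route, was not called (limma adjusted p = 0.548). The list's median control difference was -0.10 over its measured genes, against 0.01 over all genes, and 0 of its genes passed 1.5-fold in either manipulation.

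**Figure D3:**
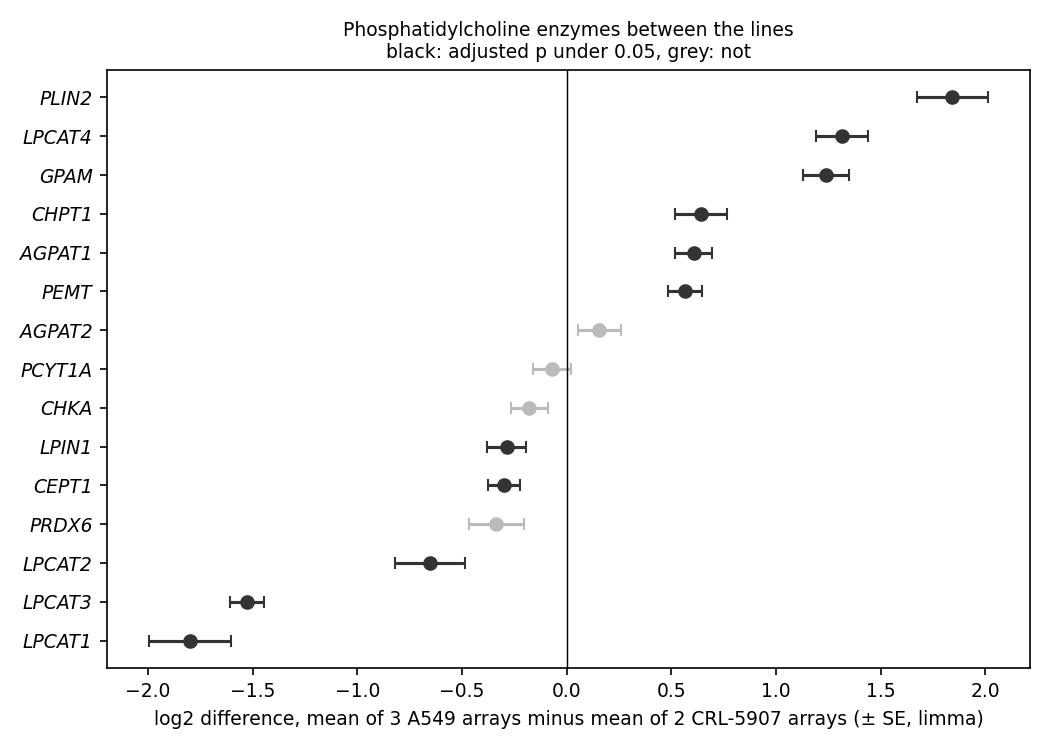
Log2 difference between the mean of 3 A549 arrays and the mean of 2 CRL-5907 arrays (horizontal axis, bars ± SE from limma) for LPCAT1 and the 14 phosphatidylcholine genes above the level filter, black where the limma adjusted p was under 0.05. LPCAT1 (-1.80) and LPCAT3 (-1.53) are furthest towards CRL-5907, and PLIN2 (1.84) and LPCAT4 (1.32) furthest towards A549; the bar of GPAM rests on CRL-5907 values below the array medians.

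Lamellar bodies are lysosome-related organelles. Of 15 genes for their membrane proteins and biogenesis 13 passed the filter, and limma called 5 higher in A549 and 1 in CRL-5907, against 31.8% and 17.7% of all genes. HPS5, among the 5, lay below the medians on both CRL-5907 arrays. LAMP2, a lysosomal relative of LAMP3, was at 7.50, 7.89 and 7.57 in A549 and 5.69 and 6.27 in CRL-5907 (1.67 ± 0.21, SE, limma adjusted p = 0.0020). On the CRL-5907 control it lay barely above the array median. With overexpression LAMP2 was 0.58 higher, just short of 1.5-fold. RAB32 (0.83 ± 0.12, SE, below the median on the CRL-5907 control) and AP3B1, a subunit of the AP-3 sorting complex (0.81 ± 0.17, SE), were also called higher in A549. RAB38, a small GTPase that acts beside RAB32 in such organelles, was higher in CRL-5907 (-1.44 ± 0.11, SE, limma adjusted p = 0.00046). LAMP1 was not called (limma adjusted p = 0.059), but was called higher in CRL-5907 with arrays centred on their medians (limma adjusted p = 0.014) and after a further quantile normalization (limma adjusted p = 0.0091). Of the other 11 ABCA transporters only ABCA1, ABCA2 and ABCA7 passed the filter, and 0 of these was called between the lines (unadjusted p-values under 0.05 were also 0 of 3). Of 9 other aquaporins measured only AQP3 passed, at 8.46, 9.26 and 8.70 in A549 and 9.39 and 9.03 in CRL-5907 (limma adjusted p = 0.248).

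Of 11 genes for surfactant collectins, protein processing and clearance 8 were measured and 3 passed the filter. SFTPA1 and SFTPA2, the other surfactant collectins, were not analysed here. CTSH, a cathepsin that trims SFTPB and SFTPC, was at 5.96, 5.89 and 5.65 in A549 and 5.71 and 5.56 in CRL-5907, and NEDD4L, a ubiquitin ligase that sorts SFTPC, was at 7.71, 8.03 and 7.83 and at 8.07 and 8.16. Neither was called (limma adjusted p = 0.247 and 0.120), although NEDD4L was called higher in CRL-5907 with arrays centred on their medians (limma adjusted p = 0.026) and after a further quantile normalization (limma adjusted p = 0.013). CKAP4, a receptor for surfactant protein A, was called slightly higher in CRL-5907 (-0.24 ± 0.07, SE, limma adjusted p = 0.032). SLC34A2, the phosphate transporter of type II cells, stayed below the filter, at 3.72, 3.57 and 3.64 in A549 and 5.34 and 5.13 in CRL-5907.

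Of 27 measured transcription factors of lung development 22 passed the filter, including the factors that work with NKX2-1 on surfactant promoters. limma called 10 higher in A549 and 5 in CRL-5907, against 31.8% and 17.7% of all genes. FOXA1 was at 8.16, 8.60 and 8.50 in A549 and 8.48 and 8.16 in CRL-5907 and was not called, while FOXA2 was higher in A549 (0.52 ± 0.10, SE, limma adjusted p = 0.0088). The C/EBP factors CEBPA (-0.56 ± 0.07, SE), CEBPB (-0.94 ± 0.08, SE) and CEBPD (-0.79 ± 0.10, SE) were each called higher in CRL-5907. Among factors above the medians on both controls, the largest control differences were those of ID2, an inhibitor of helix-loop-helix factors (3.66), SOX9, a factor of the distal lung bud (1.18), and CEBPB (-1.05). TBX3 was at 7.48, 7.84 and 7.49 in A549 and below the medians in CRL-5907 (4.70 and 4.54), and FOXP2, at 2.15 and 4.76 on the controls, was below them on every array. With knockdown 0 of the 22 passed 1.5-fold. With overexpression 0 of the 21 factors past the filter in CRL-5907 did. Of the genomic neighbours of NKX2-1, PAX9 (0.58 ± 0.09, SE, below the median on the overexpression array) and MBIP (0.61 ± 0.11, SE) were called higher in A549.

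Markers of differentiated lung cells passed the filter in differing shares, where 7987 of 14232 genes passed in all. Among 9 other type II markers measured 3 passed. MUC1, a membrane mucin, was at 6.47, 6.55 and 6.40 in A549 and 9.61 and 9.86 in CRL-5907 (-3.27 ± 0.10, SE, limma adjusted p = 4.7e-05), and CPM, carboxypeptidase M, was 0.82 higher with overexpression. CPM was the only gene of the 19 lists that passed both the level filter and 1.5-fold in that comparison. Of all genes past the filter 4.35% did. CHGB (-0.87), AQP9 (0.73) and CLIC5 (-0.66) also lay past 1.5-fold, at levels below the medians of both CRL-5907 arrays. CPM was likewise above the A549 control with hairpin 1 (0.52) and hairpin 2 (0.51), short of 1.5-fold. It thus was higher with NEDD9 lowered in A549 as well as with NEDD9 raised in CRL-5907. SLPI, a secreted antiprotease, was not called (limma adjusted p = 0.350), but was after a further quantile normalization (limma adjusted p = 0.035, higher in CRL-5907). Type I markers passed for 5 of 10, led by CAV1 (1.41 ± 0.14, SE) and IGFBP2 (1.43 ± 0.09, SE) towards A549 and EMP2 (-0.87 ± 0.10, SE) towards CRL-5907. CAV1 and CAV2, the caveolins, are made by many cell types.

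Club and secretory markers passed for 3 of 7 (CYP2F1, BPIFB1 and SCGB3A1), and limma called 0 of them (unadjusted p under 0.05 in 0 of 3). Ciliated markers passed for 2 of 8, with TPPP3 at 6.76, 8.11 and 7.18 in A549 and below the medians in CRL-5907 (5.07 and 5.43), and basal markers for 2 of 4 (KRT14 and NGFR). Neuroendocrine markers passed for 2 of 7, with CHGB, a granin, at 8.21, 9.08 and 7.87 in A549 and below the medians in CRL-5907 (5.29 and 4.42). Gastric and hepatic markers passed for 5 of 7, and limma called VIL1, TFF1 and LGALS4 higher in A549. LGALS4 differed by 0.70 ± 0.13 (SE), while VIL1 (6.74, 7.12 and 6.91 in A549, 5.07 and 4.87 in CRL-5907) and TFF1 (6.34, 6.64 and 6.86, 4.92 and 5.32) lay below the medians in CRL-5907. Of 8 mature dendritic cell markers, which LAMP3 also is, 1 passed (FSCN1, an actin-bundling protein that carcinoma cells also make). FSCN1 was at 9.74, 8.89 and 9.50 in A549, at 5.59 on the CRL-5907 control, below its median, and at 5.83 with overexpression.

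**Figure D4:**
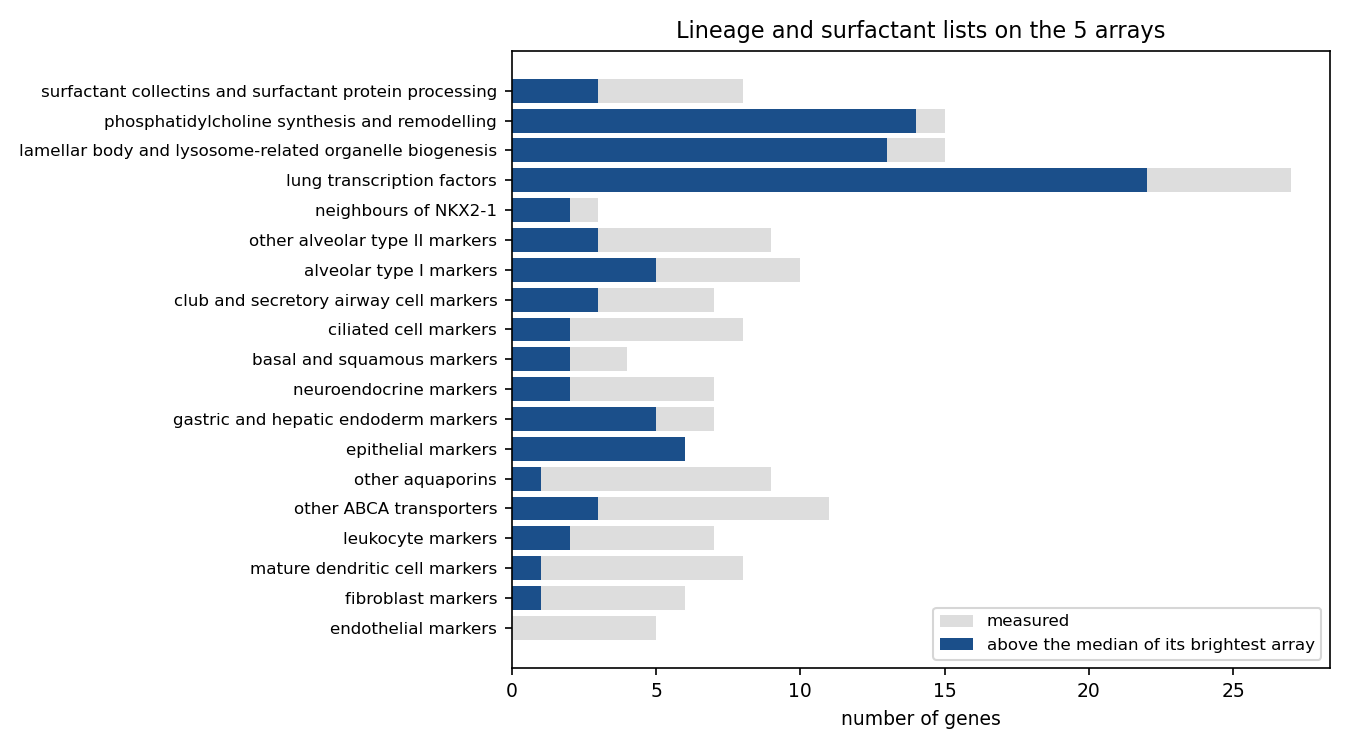
Number of genes (horizontal axis) measured in each list (grey) and above the median of their brightest array (blue) over 5 arrays. Over all genes 7987 of 14232 passed. Phosphatidylcholine enzymes (14 of 15), lamellar body genes (13 of 15), transcription factors (22 of 27) and epithelial markers (6 of 6) mostly passed. Lists for lung cell types ran from 2 of 8 (ciliated) to 5 of 10 (type I) and 2 of 4 (basal), and gastric and hepatic markers passed for 5 of 7.

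Calls between the lines lean towards A549 under the deposited values. Of all called genes 64.2% were higher in A549, and this share was 54.5% with arrays centred on their medians and 50.9% after a further quantile normalization. Under both of these the phosphatidylcholine list had 6 genes higher in A549 and 6 in CRL-5907, the lamellar body list 4 and 3, and the transcription factors 9 and 5 or 8 and 5. LPCAT1 and ABCA3, the LPCAT family, the C/EBP factors, MUC1 and LAMP2 kept their direction and their call under both.

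Among 7986 genes above the filter, those nearest to LPCAT1 by Euclidean distance between log2 profiles over the 5 arrays, each centred on its mean, were PCDH10 (distance 0.154), SIPA1L2 (0.166), PTGS1 (0.166), RASGEF1A (0.212) and PITPNM2 (0.220). PCDH10, a protocadherin, was at 4.94, 4.73 and 4.88 in A549 and 6.45 and 6.98 in CRL-5907. PTGS1, the constitutive cyclooxygenase, was at 4.08, 3.72 and 4.05 and at 5.55 and 6.06. PCDH10, SIPA1L2 and PTGS1 lay below the medians on all 3 A549 arrays, and PTGS1 also on the CRL-5907 control. These genes thus passed the filter through CRL-5907 alone. The 5 genes were 0.49 to 0.76 higher with overexpression, a feature that the choice by likeness fixes. For ABCA3, whose neighbours were looked up after its values were seen, the nearest were MFSD2A, a transporter of lysophosphatidylcholine (0.047), and POLD4, a DNA polymerase subunit (0.059). MFSD2A was at 6.65, 6.50 and 6.50 in A549 and 5.45 and 5.36 in CRL-5907, below the medians there.

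**Figure D5:**
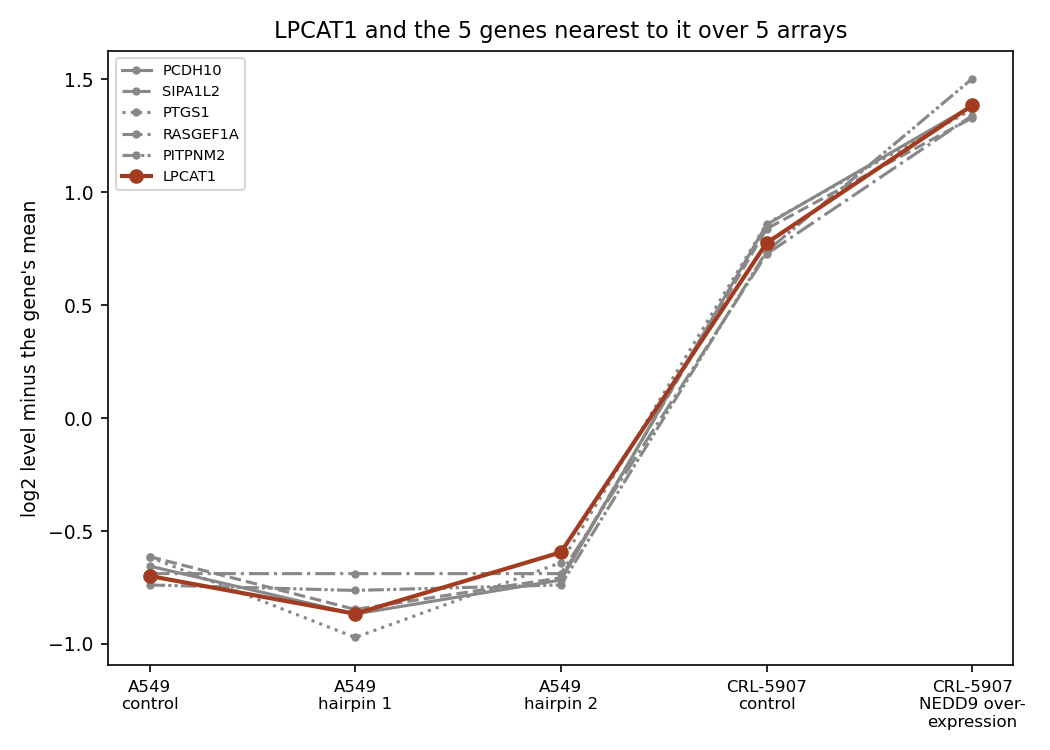
Log2 level minus each gene's own mean (vertical axis) on the 5 arrays (horizontal axis) for LPCAT1 (red) and the 5 genes nearest to it (grey), 1 point per array, with lines joining the points of a gene. All are low on the 3 A549 arrays, higher on the CRL-5907 control and highest with overexpression, as the choice by likeness requires.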

How the data were processed

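The deposited table holds log2 expression values of 22011 features on 5 arrays, which the authors computed by RMA in Affymetrix Power Tools, according to the submitters' processing notes; versions and genome build are not given in the sources used here. The range of the values gave the log base. RMA normalizes the arrays together. Array number and not read depth limits the precision. The platform annotation gave 1 gene symbol for 14432 features, several for 2408 and none used here for 5171. Of the first, 14404 matched RefSeq by Entrez number.

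Differences between arrays were computed per gene, with 1.5-fold (knockdown with both hairpins, overexpression) or 2-fold (controls) as thresholds. Knockdown and cell line were fitted with limma 3.58.1 in R 4.3.3 (trend, 1 and 3 residual degrees of freedom, Benjamini-Hochberg at 0.05). On simulated data with independent noise, the estimates were checked for both fits and the calls for the cell line fit alone. The SD of the hairpin difference was taken in 20 bins of level. Genes and lists were chosen with earlier results of these data known. Named list genes were the 4 furthest apart between controls and those past 1.5-fold in a manipulation, and family members or cofactors of the genes described, and some list genes below the array medians, were added after their values were seen.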

Additional observations from a re-analysis of the deposited data

How the results depend on the processing

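The number of genes past 1.5-fold with overexpression was 1 (LPCAT1) and fell to 0 with arrays centred on their medians, after a further quantile normalization and at 2-fold, since LPCAT1 lay just past the threshold. The counts for knockdown (0), between controls (2) and between cell lines (2) were the same under all alternatives tried, which also included averaging over the features of a gene, no level filter, a filter at the 75th percentile and limma without a trend. Leaving out each array in turn kept both genes called between the lines. Over all alternatives the limma adjusted p ran from 8.5e-05 to 0.012 for LPCAT1 and from 0.00025 to 0.011 for ABCA3. The knockdown difference of LPCAT1 was 0.10 without hairpin 1 and -0.17 without hairpin 2. No paired analysis was possible because each control is 1 array and the hairpin numbers have no counterpart in another group.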
